A study of Mus musculus with 3 samples.

Results

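The IFIT and OAS families are groups of interferon-induced antiviral genes, and 10 of them were followed here: Ifit1, Ifit2, Ifit3 and Ifit3b of the IFIT family, and Oas1a, Oas1g, Oas2, Oas3, Oasl1 and Oasl2 of the OAS family. They were taken by gene symbol from the 31053 genes of the deposited matrices, and all 10 were found. Their mRNA molecules were counted cell by cell with 10x droplet RNA-seq in monocytes and macrophages from wounded skin, taken from male C57BL6/J mice at day 3, day 6 or day 10 post-injury and freed from the tissue by enzymatic digestion. The genotype field gives the strain and no further allele, the sample titles carry the prefix WT, no treatment is named, and neither the age of the mice nor the method of isolation is given in the sources used here. Each day is 1 library of cells pooled from 2 mice, so there are no replicates, no test was run, and every difference describes these 3 libraries.

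IFIT proteins are tetratricopeptide-repeat proteins that bind viral RNA. Ifit1 binds RNA whose cap lacks the methylation typical of host mRNA, in humans IFIT2 and IFIT3 form complexes with it and with each other, and Ifit3b is a near-identical copy of Ifit3. OAS proteins sense double-stranded RNA and make 2′-5′-linked oligoadenylates, which lead to the cleavage of RNA in the cell. In the mouse, Oas1a, Oas1g, Oas2, Oas3 and Oasl2 have synthetase activity, whereas Oasl1 lacks it and represses translation of Irf7 mRNA. Type I interferon acts through a receptor that activates a complex with Stat2 and Irf9, and this complex binds the interferon-stimulated response element (ISRE) in the promoters of such genes. Skin wounds draw monocytes, marked by Ly6c2, from the blood, and these can become macrophages, marked by the complement gene C1qa, while Cd209a marks dendritic cells of monocyte type.

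The genes lie in clusters. In GRCm38, the assembly that mm10 names, with the GENCODE vM21 annotation, the IFIT genes are neighbours on the plus strand of chromosome 19: Ifit2 at chr19:34550694-34576419, Ifit3 at chr19:34583531-34588731, Ifit3b at chr19:34607970-34613401 and Ifit1 at chr19:34640871-34650009. On chromosome 5, Oas2 (chr5:120730333-120749853), Oas3 (chr5:120753098-120777661), Oas1g (chr5:120876142-120887613) and Oas1a (chr5:120896256-120907521) lie on the minus strand, and Oasl2 (chr5:114896936-114912234) and Oasl1 (chr5:114923240-114937915) on the plus strand. All 10 are annotated as protein coding.

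The promoters are shown because all 10 genes had a lower level at day 10 than at day 3, by different amounts. Whether the motifs bear on these amounts was not tested. RefSeq promoter windows (GRCm38.p6) were matched by symbol for 9 of the 10 genes. The ISRE core, GAAA, any 2 bases and GAAA again, searched on both strands, was found in the 250 bases before the start of 6 of these 9 genes, and 5 of the 6 held it 2 times. Of all 32851 windows of that length, 2.98% held it. The stretches with the core are printed 5′ to 3′ on the strand of the gene, with the core in capitals (TTTC, any 2 bases and TTTC where it lies on the opposite strand).
Ifit1: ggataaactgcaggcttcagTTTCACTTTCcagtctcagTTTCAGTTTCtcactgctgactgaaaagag
Ifit3: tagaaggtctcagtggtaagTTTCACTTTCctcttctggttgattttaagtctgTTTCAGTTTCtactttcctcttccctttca
Ifit3b: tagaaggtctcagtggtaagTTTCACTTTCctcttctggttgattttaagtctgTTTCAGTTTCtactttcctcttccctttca
Oas1a: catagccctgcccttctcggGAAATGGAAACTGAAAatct
Oas1g: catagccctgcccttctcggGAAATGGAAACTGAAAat
Oas3: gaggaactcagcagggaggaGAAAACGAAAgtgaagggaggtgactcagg
They lie at chr19:34640765-34640833 (Ifit1), chr19:34583353-34583436 (Ifit3) and chr19:34607749-34607832 (Ifit3b) on the plus strand, and at chr5:120907526-120907565 (Oas1a), chr5:120887614-120887651 (Oas1g) and chr5:120777705-120777754 (Oas3) on the minus strand. In Ifit1, Ifit3 and Ifit3b the pair of cores are separate, and the 84 bases printed for Ifit3 and Ifit3b are the same at 84 of 84 positions. In Oas1a and Oas1g the 2 matches overlap in 1 run of capitals, which begins 20 bases before the start of Oas1a and 18 bases before that of Oas1g. The GAS motif, TTCNNNGAA, an element of genes induced by interferon-gamma, was found in the windows of Ifit2 and Oas1a, and 7.02% of all windows held it. It does not overlap an ISRE core in either window. The windows of Oasl1, Oasl2 and Ifit2 held no ISRE core in these letters.

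The deposited libraries held 1472, 1196 and 2209 barcodes with 11199361, 9273960 and 13972817 UMIs (unique molecular identifiers, 1 for each mRNA molecule counted) at days 3, 6 and 10. After removal of barcodes with under 200 detected genes or with 10% or more mitochondrial UMIs, 900, 598 and 1362 cells were kept, with medians of 10629, 11778.5 and 8285 UMIs. Only days 10 and 6 shared cell barcodes, and they shared 2. Cells were divided by 3 genes into 5 gates. Cells with at least 2 Cd209a UMIs formed the Cd209a gate. The remaining cells entered the Ly6c2 gate with at least 2 Ly6c2 UMIs, the C1qa gate with at least 2 C1qa UMIs, the double gate with both, and the neither gate with fewer of each. The Ly6c2 gate held 347, 22 and 79 cells at days 3, 6 and 10, the C1qa gate 70, 273 and 655, the Cd209a gate 132, 112 and 174, the double gate 69, 11 and 4, and the neither gate 282, 180 and 450. A gate is a range of a count and not a cell type. At the limit, 1 UMI only was seen in 102, 22 and 37 cells for Ly6c2, in 33, 29 and 91 cells for C1qa and in 7, 18 and 31 cells for Cd209a.

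Among the Ly6c2, C1qa and Cd209a gates, the monocyte, macrophage and dendritic cell marker lists without the gate genes were highest in that order. The 7 other monocyte markers summed to 9052, 6157 and 7327 CPM (UMIs per 1000000 UMIs of the cells summed) in the Ly6c2 gate at days 3, 6 and 10, against 4179, 1278 and 1349 CPM in the C1qa gate. The 8 other macrophage markers summed to between 14713 and 23704 CPM in the C1qa gate, between 4129 and 4531 CPM in the Ly6c2 gate and between 484 and 774 CPM in the Cd209a gate. The 8 other dendritic cell markers summed to 1460, 1539 and 1508 CPM in the Cd209a gate, and to at most 685 CPM in the Ly6c2 and C1qa gates. The C1qa gate of day 3 held more monocyte mRNA and less macrophage mRNA than that of the later days. At day 6 the Ly6c2 gate also held neutrophil markers at 2758 CPM (231 and 169.9 CPM at days 3 and 10, with 5, 6 and 4 of the 6 markers seen at days 3, 6 and 10) and natural killer cell markers at 115 CPM (0 at the other days). The C1qa gate of day 6 held erythroid markers at 4160.1 CPM (1.59 and 0.725 CPM at days 3 and 10). The part of the erythroid mRNA in the values of day 6 was not tested. The 5 markers of plasmacytoid dendritic cells, which are strong producers of type I interferon, stayed between 9.44 and 27.0 CPM in these 3 gates, and their defining gene Siglech at 2.30 CPM or less.

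The 10 genes together carried 746, 303 and 129.7 CPM at days 3, 6 and 10 in all kept cells, from 7279, 2202 and 1571 UMIs. The sum was 5.75-fold lower at day 10 than at day 3 (95% interval 5.45 to 6.08), 2.46-fold lower at day 6 than at day 3 and 2.34-fold lower at day 10 than at day 6. Intervals here and throughout are exact and cover counting error only, not the spread between mice, and a difference larger than its interval may still be a difference between pools. Those of UMI sums and their ratios treat each UMI as independent and leave out the spread between cells. They are therefore too narrow where few cells hold many of the UMIs. The OAS sum was 579, 196.6 and 87.9 CPM and the IFIT sum 166.8, 106.6 and 41.8 CPM at days 3, 6 and 10. At day 6 the OAS sum was 2.95-fold and the IFIT sum 1.57-fold lower than at day 3. At day 10 the OAS sum was 2.24-fold lower than at day 6 (2.06 to 2.42) and the IFIT sum 2.55-fold lower (2.28 to 2.86). Over the whole span the OAS sum was 6.59-fold lower at day 10 than at day 3 (6.17 to 7.04) and the IFIT sum 3.99-fold (3.61 to 4.42).

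The IFIT value of day 10 rested on few cells. The 5 cells with most family UMIs in each library held 4.23%, 18.4% and 23.3% of all family UMIs at days 3, 6 and 10. Without them the IFIT sum was 7.12-fold lower at day 10 than at day 3 and the OAS sum 7.22-fold, so the gap between the 2 families closed, and the sum of all 10 genes was 7.2-fold lower. This set was chosen by the measured value, so these figures are descriptions.

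Of the 10 genes, 9 were at least 2-fold lower at day 10 than at day 3, where 3.96% of the 11289 genes with at least 20 UMIs over both libraries were. Their median log2 ratio was −2.42, against 0.17 for all genes measured, which is also the shift by which the middle of the libraries differs under CPM. At day 6 against day 3, 5 of 10 were at least 2-fold lower (background 3.31%), and at day 10 against day 6, 6 of 10 (background 3.63%). No member was 2-fold higher at day 10 than at day 3 in all kept cells, where 12.8% of all genes were.

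**Figure D1:**
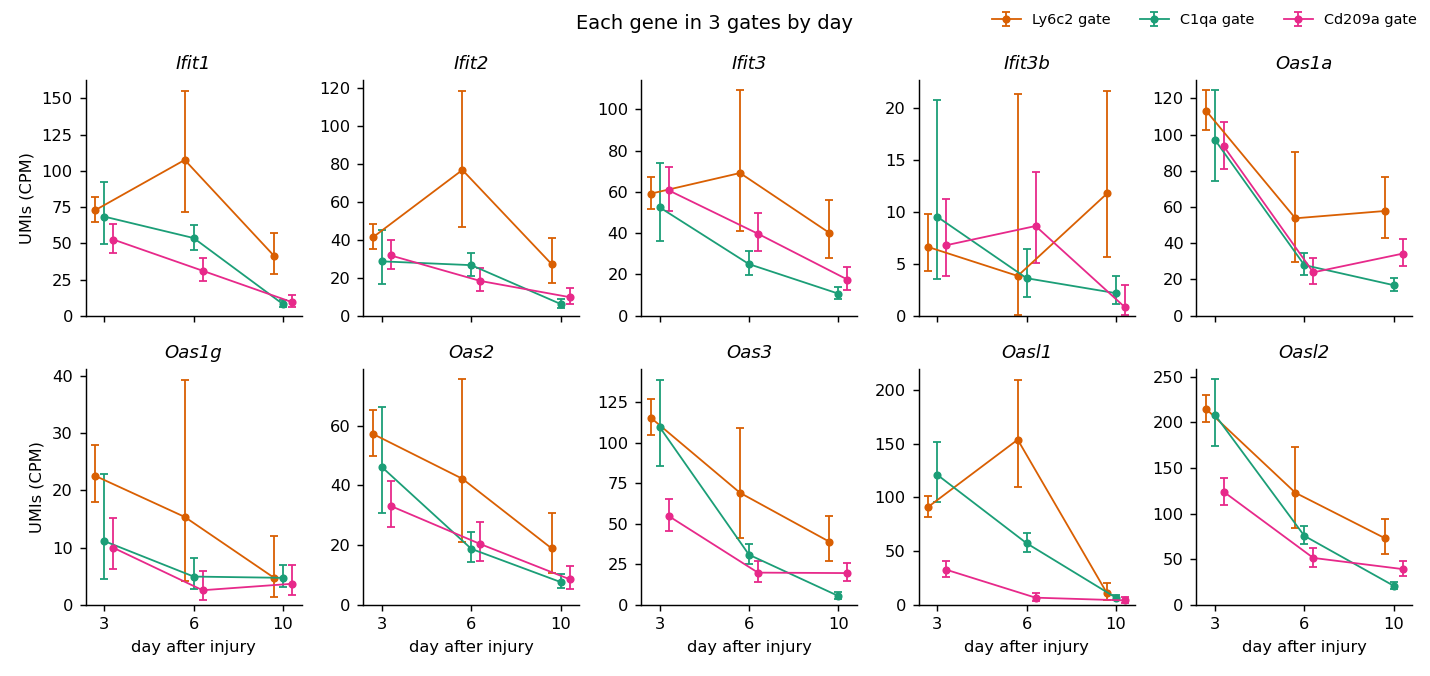
Level of each gene in CPM (UMIs per 1000000 UMIs; vertical axis, own scale in each panel) by day after injury in the Ly6c2, C1qa and Cd209a gates. Points are 1 library each and bars are exact Poisson 95% intervals; in the Ly6c2 gate Ifit1, Ifit2, Ifit3 and Oasl1 have their highest point at day 6, when that gate held 22 cells.

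Among the IFIT genes, Ifit1 had 69.9, 48.2 and 12.6 CPM at days 3, 6 and 10 (682, 350 and 153 UMIs). It was 5.53-fold lower at day 10 than at day 3 (4.64 to 6.64), and most of that lay after day 6, with a 3.82-fold lower level at day 10 than at day 6 (3.15 to 4.64). Without the 5 highest cells of each library the day 10 to day 3 difference was 10.9-fold. Ifit2, which in humans binds AU-rich RNA, had 33.5, 22.9 and 9.57 CPM and was 3.5-fold lower at day 10 than at day 3 (2.82 to 4.36). Ifit3, which in humans stabilises IFIT1, had 57.5, 30.8 and 15.9 CPM and was 3.61-fold lower (3.06 to 4.27), or 6.44-fold without the 5 highest cells. The intervals of the 3 days do not overlap for any of these 3 genes. Ifit3b had the fewest UMIs, 58, 34 and 44, or 5.94, 4.68 and 3.63 CPM. It was 1.64-fold lower at day 10 (1.09 to 2.48), the only member within 2-fold, and 3.73-fold lower without the 5 highest cells. Its transcript is 98% identical to that of Ifit3, and Oas1a and Oas1g are 97.5% identical. Among the longest coding transcripts, stretches of 98 bases, about a read, were shared within these pairs and within no other pair of the same family. IFIT genes were not compared with OAS genes. UMIs of these 4 genes may be lost or misassigned.

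Among the OAS genes, the single-domain synthetase Oas1a had 113, 31.4 and 25.4 CPM at days 3, 6 and 10 (1106, 228 and 308 UMIs). Its difference was nearly complete by day 6, with a 1.23-fold difference between day 10 and day 6 (1.04 to 1.47) against 4.46-fold between day 10 and day 3 (3.93 to 5.08). Oas1g had the same course at a lower count, with 21.0, 5.23 and 4.04 CPM and overlapping intervals at days 6 and 10. Oas2, with 55.9, 19.0 and 9.16 CPM, was 6.10-fold lower at day 10 than at day 3 (4.96 to 7.55). Oas3, the largest synthetase, which in humans responds to long double-stranded RNA, had 101, 29.0 and 11.6 CPM and was 8.76-fold lower (7.33 to 10.5).

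Oasl1, the member without synthetase activity, had 84.5, 44.7 and 8.83 CPM, and its order of steps was the reverse of that of Oas1a. It was 9.57-fold lower at day 10 than at day 3 (7.82 to 11.8), the largest ratio of the 10, and 5.07-fold lower at day 10 than at day 6 (4.06 to 6.36). Without the 5 highest cells the day 10 to day 3 difference was 15.3-fold. Oasl2, which has synthetase activity, carried the most UMIs, 1982, 488 and 350, or 203, 67.2 and 28.9 CPM, and was 7.03-fold lower at day 10 than at day 3 (6.27 to 7.90). The composition of the family thus differed between days. At days 3, 6 and 10, Oas1a made up 15.2%, 10.4% and 19.6% of the family UMIs, and Oasl1 11.3%, 14.8% and 6.81%. Over 8 alternative settings the day 10 level stayed below that of day 3 for each of the 10 genes.

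**Figure D2:**
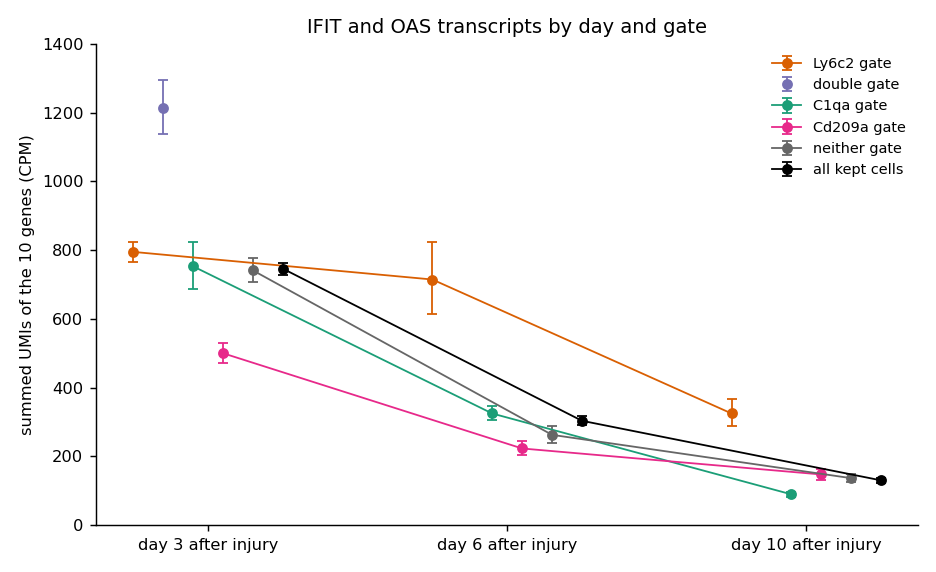
Summed level of the 10 genes in CPM (UMIs per 1000000 UMIs) by day for each gate and for all kept cells, with exact Poisson 95% intervals. Points are sums over at least 20 cells of 1 library; at day 3 the double gate stood highest at 1214 CPM, and at day 10 the Ly6c2 gate at 324 CPM and the C1qa gate lowest at 89.0 CPM.

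The gates without Cd209a stood close together at day 3 and apart at day 10, except for the double gate. The family sum was 795, 714 and 324 CPM in the Ly6c2 gate at days 3, 6 and 10, 753, 324 and 89.0 CPM in the C1qa gate, 499.7, 223 and 147 CPM in the Cd209a gate, and 741, 262 and 136 CPM in the neither gate. The double gate, with monocyte and macrophage transcripts in 1 cell, stood highest of all sums, with 1214 CPM at day 3 (1138 to 1294). It was 1.61-fold above the C1qa gate of that day (1.44 to 1.81). Of its 9 measured genes, 5 were at least 2-fold higher (background 2.97%), namely Ifit1 (2.07-fold), Ifit2 (2.54-fold), Ifit3 (2.48-fold), Oas1a (2.13-fold) and Oas1g (4.01-fold, 1.76 to 10.7). Oasl1 differed by 1.01-fold (0.742 to 1.39). Of the 5 cells with most family UMIs at day 3, 2 lay in the double gate and none in the C1qa gate. Without them 3 of the 9 genes were at least 2-fold higher (Ifit3, Oas1a and Oas1g), and the share of all genes was not computed for that setting. Ifit1 was then 1.38-fold higher (0.933 to 2.06) and Ifit2 1.88-fold (1.05 to 3.47), and the family sum was 1.46-fold above that of the C1qa gate. Scrublet called 1 of the 69 cells of the double gate a doublet. The median was 10780 UMIs in the double gate, 10940 in the Ly6c2 gate and 8289.5 in the C1qa gate at day 3. The part of doublets in the level of the double gate was not tested. Its sums of days 6 and 10 rest on 11 and 4 cells and were not compared. In order of level, the Ly6c2 gate, the C1qa gate and the neither gate of day 3 and the Ly6c2 gate of day 6 came next, and their intervals overlapped. The C1qa gate of day 6 and the Ly6c2 gate of day 10 both stood at 324 CPM, and the Cd209a and neither gates of day 10 also overlapped. The highest cells of the neither gate of day 10 held 109 and 62 of its 444 family UMIs.

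The Ly6c2 gate kept more of the family sum at day 10, but not of every member. Its sum was 2.45-fold lower at day 10 than at day 3 (2.16 to 2.78), against 8.46-fold in the C1qa gate (7.44 to 9.62) and 3.40-fold in the Cd209a gate (3.02 to 3.84). In the neither gate it was 5.44-fold lower (4.90 to 6.05), and 8.80-fold without the 5 highest cells of each library. Of the 10 genes, 5 were at least 2-fold lower at day 10 in the Ly6c2 gate (background 8.12%). In the C1qa gate 9 of the 9 members with enough UMIs were (background 5.92%), and in the Cd209a gate 9 of 9 (background 3.82%), Ifit3b having too few UMIs in either. In the Ly6c2 gate the 5 were Oas1g, Oas2, Oas3, Oasl1 and Oasl2, all OAS genes. The IFIT sum there was 120 CPM at day 10 (98.1 to 146), against 180.0 CPM at day 3 (167 to 194), 1.5-fold lower, while the OAS sum was 204 against 615 CPM, 3.01-fold lower. Leaving out the 5 highest cells of each library gave 1.86-fold and 3.11-fold, and Ifit1 was then 3.35-fold lower in place of 1.77-fold (1.24 to 2.59). Ifit3b was 1.78-fold higher at day 10 in the Ly6c2 gate, from 10 and 25 UMIs (0.763 to 3.84), and without those cells its ratio of day 10 over day 3 was 0.933, on the other side of 1. In the Cd209a gate the OAS sum was 109 CPM at day 10 against 348 CPM at day 3, and the IFIT sum 37.5 against 152 CPM. Oas1g had 4.72 CPM at day 10 (4 UMIs) against 22.5 CPM at day 3 in the Ly6c2 gate. In the C1qa gate it had 4.71 against 11.1 CPM.

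**Figure D3:**
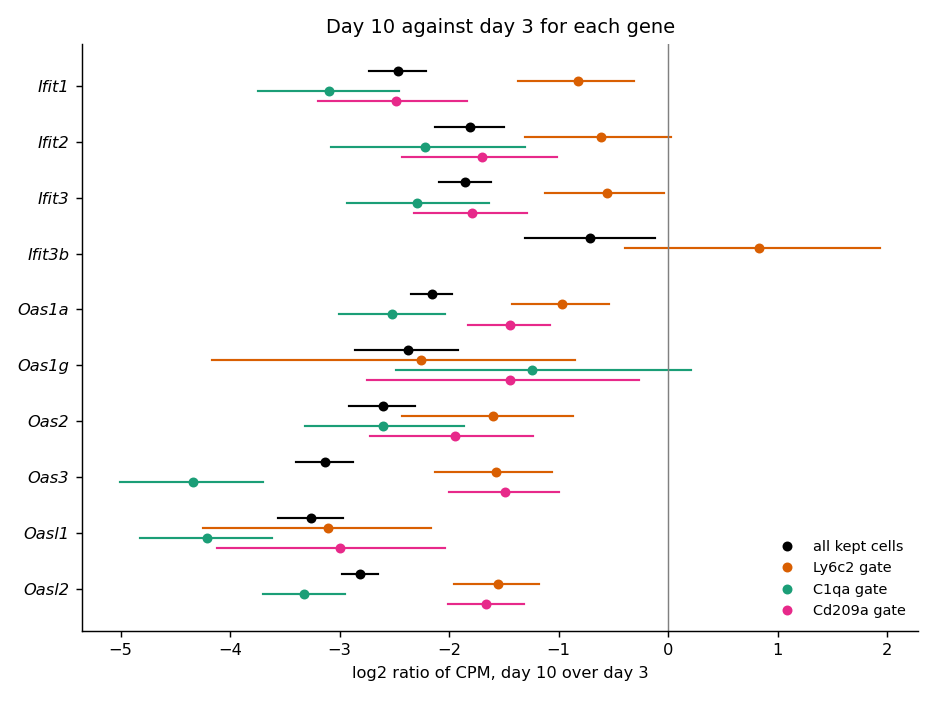
Log2 ratio of CPM at day 10 over day 3 for each gene (horizontal axis), in all kept cells and in the Ly6c2, C1qa and Cd209a gates. Points left of 0 are lower at day 10, bars are exact 95% counting intervals, and genes with under 20 UMIs over both days in a gate are not drawn; Oas3 spans from 20.2-fold lower in the C1qa gate to 2.80-fold lower in the Cd209a gate.

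The largest differences between days were those of Oas3 and Oasl1 in the C1qa gate. Oas3 had 109.8, 30.9 and 5.44 CPM at days 3, 6 and 10 there and was 20.2-fold lower at day 10 than at day 3 (13 to 32.1). In the Ly6c2 gate it had 116, 69.1 and 38.9 CPM (2.97-fold, 2.08 to 4.37) and in the Cd209a gate 54.9, 19.9 and 19.6 CPM (2.80-fold, 1.99 to 4.0). Oasl1 had 121, 57.2 and 6.52 CPM at days 3, 6 and 10 in that gate and was 18.5-fold lower (12.3 to 28.4). Oasl2 was 10.0-fold lower there (7.73 to 13), Oas2 6.06-fold and Oas1a 5.76-fold. Among the IFIT genes of the C1qa gate, Ifit1 was 8.58-fold lower at day 10 (5.50 to 13.4), Ifit3 4.91-fold and Ifit2 4.65-fold. Without the 5 highest cells of each library these were 18.8-fold, 17.0-fold and 9.85-fold. The IFIT sum of the C1qa gate was 5.89-fold lower at day 10 than at day 3, and 15.1-fold without those cells. At day 10, 1 cell carried 125 of the 491 family UMIs of that gate.

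The Cd209a gate started lower and had a flatter course after day 6. At day 3 its family sum was 1.51-fold below that of the C1qa gate (1.35 to 1.68), and the gap lay in Oasl1, with 32.7 against 121 CPM (3.70-fold, 2.65 to 5.19), Oas3, with 54.9 against 109.8 CPM (2.0-fold), and Oasl2 (1.68-fold). The IFIT sum was 1.05-fold lower (0.829 to 1.31), and its ratio was 0.735 (0.581 to 0.936) without the 5 highest cells. At day 10 the Cd209a gate stood above the C1qa gate, 1.65-fold (1.44 to 1.89), with Oas3 at 19.6 against 5.44 CPM (3.60-fold, 2.24 to 5.89) and Oas1a at 34.3 against 16.9 CPM (2.03-fold). Between day 10 and day 6 its OAS sum differed by 1.14-fold (0.956 to 1.36) and its IFIT sum by 2.60-fold (2.02 to 3.38), in both cases lower at day 10.

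Within a library, the Ly6c2 gate stood above the C1qa gate by 1.06-fold at day 3 (0.958 to 1.17), 2.20-fold at day 6 (1.87 to 2.58) and 3.65-fold at day 10 (3.13 to 4.23). With gates set at 1 UMI the day 10 value was 5.39-fold. At day 3, 1 of 10 genes was at least 2-fold higher in the Ly6c2 gate (Oas1g, 2.02-fold, 0.940 to 5.18, background 3.62%). At day 6, 6 of the 8 measured genes were (background 6.87%), and at day 10, 8 of 10 (background 6.98%), all except Oas1g (1.0-fold) and Oasl1 (1.63-fold, 0.689 to 3.44). At day 10, Oas3 had 38.9 CPM in the Ly6c2 gate against 5.44 CPM in the C1qa gate (7.16-fold, 4.23 to 12.2). Ifit3b had 11.8 against 2.17 CPM, from 10 and 12 UMIs (5.42-fold, 2.10 to 13.7), and Ifit1 had 41.3 against 7.97 CPM (5.18-fold, 3.22 to 8.26). The intervals of Oas3, Ifit3b and Ifit1 overlap. In the Ly6c2 gate of day 10, 1 cell held 5 of the 10 Ifit3b and 19 of the 35 Ifit1 UMIs. In the C1qa gate of day 10, 1 cell held 7 of the 12 Ifit3b and 24 of the 44 Ifit1 UMIs. Without the 5 highest cells of each library, 4 of 8 genes were at least 2-fold higher at day 6 and 7 of 9 at day 10, where Ifit3b had too few UMIs. The share of all genes was not computed for that setting. The day 10 folds of Ifit3 and Ifit2 were then 12.3 and 9.01, in place of 3.75 and 4.4. The monocyte markers moved with these gaps, as given above, and their part in them was not tested. Without cells that held 20 or more UMIs of the neutrophil list the value of day 6 was 2.23-fold, and without cells with an Ifnb1 UMI it was 1.59-fold.

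The family sum was also computed with gate shares held fixed. With the day 10 level of each gate weighted by the UMI shares of the gates at day 3, the family sum would be 199.5 CPM at day 10, 3.74-fold below the 746 CPM of day 3. With the day 3 levels weighted by the day 10 shares it would be 703 CPM, 1.06-fold below. These values hold the 5 gates fixed, and the double gate of day 10, with 4 cells, enters the first of them.

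A smaller share of cells held a family UMI at the later days. From every cell 2000 UMIs were drawn at random (thinning), which left 879, 551 and 1272 cells and left out 21, 47 and 90 shallower ones at days 3, 6 and 10. At least 1 family UMI was then seen in 64.2% of cells at day 3 (60.9 to 67.3%, exact Clopper-Pearson), 27.4% at day 6 (23.7 to 31.3%) and 12.4% at day 10 (10.7 to 14.4%). Unthinned the shares were 87.6%, 58.0% and 33.8%. At day 10 the thinned share was 30.4% in the Ly6c2 gate (20.5 to 41.8%), against 10.3% in the C1qa gate (8.0 to 12.9%). Cells with UMIs of at least 4 of the 10 genes after thinning numbered 67 of 879, 16 of 551 and 11 of 1272, or 7.62%, 2.90% and 0.865%, and no thinned cell had more than 8. No cell type here is known to lack these genes, and droplets without cells were not analysed here, so the part of free RNA in these shares was not tested.

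**Figure D4:**
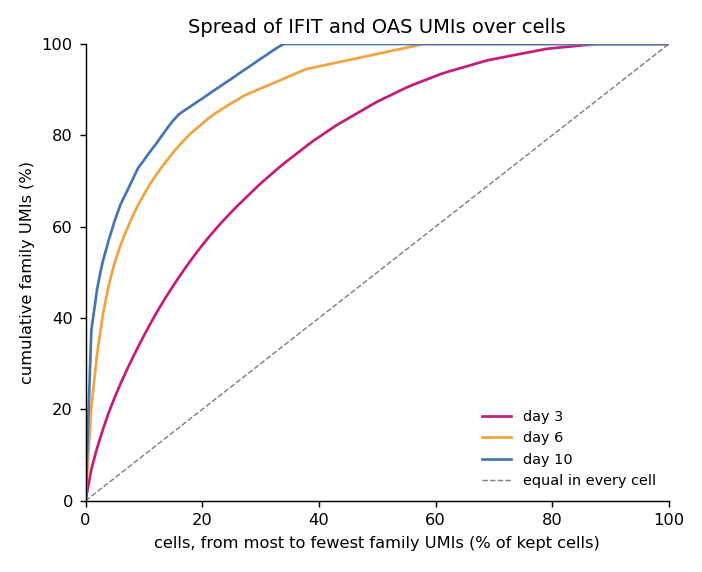
Cumulative percentage of family UMIs (vertical axis) over kept cells ranked from most to fewest family UMIs (horizontal axis, percent of cells), per library, with the dashed line for equal amounts in every cell. The 10% of cells with most of them held 36.1% of them at day 3, 66.7% at day 6 and 74.5% at day 10.

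Few cells carried most of the family mRNA at days 6 and 10, as the cumulative plot shows. The 50% mark was reached with 150 of 900 cells at day 3, 28 of 598 at day 6 and 35 of 1362 at day 10. The highest cells held 77, 141 and 125 family UMIs. Thinned counts had a variance of 2.60, 5.29 and 5.36 times their mean at days 3, 6 and 10, where counts spread at random over like cells would have 1 time the mean. Both later days stood above day 3 in the Ly6c2, C1qa and neither gates, but the Cd209a gate had 2.48, 2.31 and 3.01 times the mean. These values are depth-matched, but the ranking of the cumulative plot is not, and its tail at low counts depends on depth.

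The 2 families were not spread alike over cells. Cells were ranked by the summed level of 24 other interferon-stimulated genes, among them Isg15, Rsad2 and Irf7, none of which is a member. The 10% of cells highest by that list (90, 59 and 136 cells) held 46.8%, 82.2% and 88.1% of all IFIT UMIs and 22.1%, 46.1% and 48.4% of all OAS UMIs at days 3, 6 and 10. In these cells the IFIT genes stood at 831, 803 and 294 CPM and the OAS genes at 1363, 832 and 339 CPM. In all other cells the IFIT genes stood at 98, 21.3 and 5.66 CPM and the OAS genes at 498, 119 and 51.9 CPM. The IFIT share of family UMIs was accordingly 37.9%, 49.1% and 46.4% in the cells highest by that list, and 16.4%, 15.2% and 9.84% in the others. The 10% is a share of each library and not a fixed level, and at day 10 these cells had a median of 10965.5 UMIs, against 7880 in the others.

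**Figure D5:**
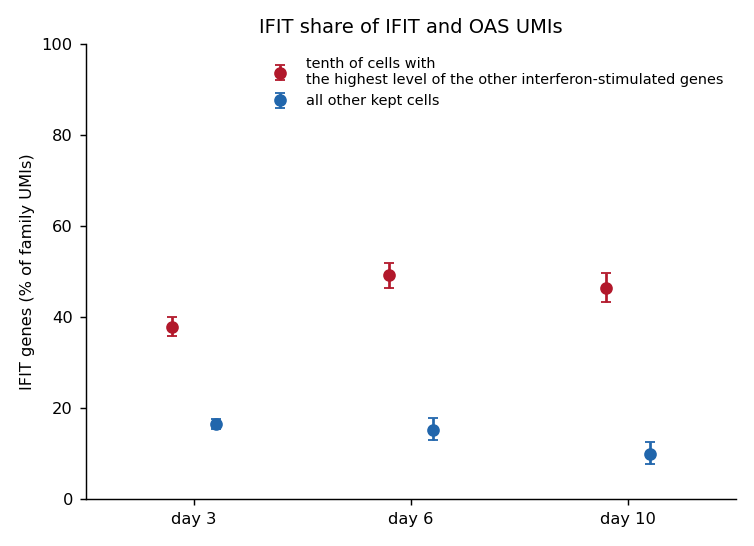
Percentage of IFIT and OAS UMIs that came from the 4 IFIT genes, by day, in the 10% of cells with the highest level of 24 other interferon-stimulated genes and in all other kept cells. Bars are exact binomial 95% intervals; the shares are 37.9%, 49.1% and 46.4% in these cells and 16.4%, 15.2% and 9.84% in the others at days 3, 6 and 10.

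Over all cells the IFIT share of family UMIs was 22.4% at day 3 (21.4 to 23.3%), 35.1% at day 6 (33.2 to 37.2%) and 32.2% at day 10 (29.9 to 34.6%). In the 5 highest cells it was 67.9%, 66.9% and 70.5%, and without them 20.4%, 28.0% and 20.6%. The highest cells were found in several gates. At day 6 the first of them, with 141 family UMIs of which 71 were Ifit1, lay in the C1qa gate. At day 10 the first lay in the C1qa gate, with 42 Ifit3 UMIs among 125, and the second in the neither gate, with 37 Ifit3 and 16 Ifit3b UMIs among 109. The cell in the neither gate alone thus held 16 of the 44 Ifit3b UMIs of day 10.

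IFIT and OAS mRNA occurred in the same cells. After thinning, an OAS UMI was found in 84.2%, 67.4% and 61.8% of the cells with an IFIT UMI (171, 43 and 34 cells at days 3, 6 and 10). Of the cells without an IFIT UMI, 55.5%, 21.3% and 10.0% had one (708, 508 and 1238 cells). Over all kept cells the intervals of the 2 kinds of cell do not overlap on any of the 3 days, and the cells of a day share 1 library. Within gates they overlap in the double and C1qa gates of day 3 and in the Ly6c2 and Cd209a gates of day 6. In every gate compared the share was higher in the cells with an IFIT UMI.

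Among 21 interferon genes, the ligands upstream of the family, Ifnb1 was the only one with a UMI. It had 55, 26 and 2 UMIs at days 3, 6 and 10, in 8, 5 and 1 cells, and was not confined to a gate. The 8 cells of day 3 held between 620 and 1687 family CPM, all above the median of 558 CPM of the cells without Ifnb1. Summed, the family stood at 1148 CPM in the Ifnb1 cells of day 3 (954 to 1370), against 741 CPM in the cells without. At day 6 the sums were 1869 CPM (1554 to 2228) and 289 CPM, but 2 of the 5 Ifnb1 cells, both among the 5 cells with most family UMIs, held 116 of the 124 family UMIs. The other 3 held 5, 2 and 1 family UMIs, or 214 CPM together (92.2 to 421), below the 289 CPM of the cells without Ifnb1. The cell with 20 Ifnb1 UMIs lay in the Ly6c2 gate and held 64 of the 186 family UMIs of that gate. At day 10 the 1 cell with 2 Ifnb1 UMIs held 0 family UMIs among 3944. None of the 5 highest cells of day 3 or day 10 held an Ifnb1 UMI. Secreted interferon acts on other cells, and which cells were exposed was not measured.

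Other genes of the response were lower at day 10 as well. Of the 24 measured genes of the list of other interferon-stimulated genes, 23 were at least 2-fold lower at day 10 than at day 3 (background 3.96%). None was 2-fold higher (background 12.8%), and the median log2 ratio was −2.12. Isg15, a ubiquitin-like modifier, had 807, 193 and 77.5 CPM at days 3, 6 and 10 and was 10.4-fold lower at day 10 than at day 3 (9.72 to 11.1). Irf7, the transcription factor that amplifies interferon production and whose mRNA Oasl1 represses, had 389, 107 and 46.1 CPM, 8.44-fold lower. Rsad2, which encodes viperin, had 207, 142 and 27.2 CPM, 7.58-fold lower. The smallest ratios of the list were those of Samd9l (1.31-fold lower), Dtx3l (2.03-fold) and Lgals9 (2.40-fold).

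The genes that detect nucleic acid and carry the interferon signal moved less. Of 20 such genes, 5 were at least 2-fold lower (background 3.96%) and none 2-fold higher (background 12.8%) at day 10, with a median log2 ratio of −0.48. Stat2 was 3.75-fold lower and the RNA sensor gene Ddx58 3.72-fold. The kinase gene Jak1 was 1.17-fold higher, the RNA sensor gene Tlr3 1.72-fold higher (1.09 to 2.78) and the feedback inhibitor gene Socs1 1.91-fold higher (1.48 to 2.47), with 17.4 CPM at day 10 against 9.12 CPM at day 3. Of the genes listed downstream of the OAS enzymes, Abce1, an ATP-binding protein that acts in ribosome recycling, was 1.47-fold higher at day 10 than at day 3 (1.24 to 1.75), and Pde12, a phosphodiesterase that degrades oligoadenylates, 1.26-fold lower (0.979 to 1.62). Neither reached 2-fold.

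Most genes biased to interferon-gamma were lower at day 10 too. Of 13 measured, 9 were at least 2-fold lower than at day 3 (background 3.96%) and 1 at least 2-fold higher (background 12.8%). Their median log2 ratio was −1.52. The immunity-related GTPase Igtp was 3.76-fold lower, and the guanylate-binding protein genes Gbp5 and Gbp2 3.63-fold and 3.39-fold lower. Irf1 was 1.60-fold lower, Ciita, the regulator of MHC class II genes, 1.34-fold higher, and Iigp1 5.37-fold higher (1.59 to 28.2) from 20 UMIs at day 10 and 3 UMIs at day 3. At day 6 the median of this list against day 3 was −0.26, beside −1.24 for the 10 members. Of the other IFIT and OAS genes in the files, Ifit1bl1 had 6.15, 6.88 and 1.57 CPM and was 3.92-fold lower at day 10 than at day 3 (2.31 to 6.96), and Oas1c was 1.28-fold lower (0.769 to 2.13).

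Among the 10 genes most like the family sum across the 13 gate-by-day sums with at least 20 cells were, out of 3981 genes with at least 50 CPM in one of them, Isg15 (Pearson r of log2(CPM + 1) of 0.986), Trafd1, Irf7, Ogfr, Trim30a, Ifi206, Ifi205, Rnf213 and Stat2 (0.970). These sums share 3 libraries, so the r is a description. Within the family, Oas3, Oasl2 and Oas2 followed the sum of the other members most closely (r of 0.974, 0.968 and 0.963), Ifit2 less so (0.782) and Ifit3b least (0.319), over the same 13 sums.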

How the data were processed

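The authors deposited raw UMI counts per gene and barcode, 1 matrix per library, made with Cell Ranger 3.0.2 against mm10 per the submitters' processing notes. Which annotation release they counted against is not stated in those sources. Whole-number counts were used as deposited. Barcodes with at least 200 genes and under 10% mitochondrial UMIs were kept, which left out 572, 598 and 847 barcodes at days 3, 6 and 10. Scrublet (scanpy 1.11.5) called 10, 5 and 5 doublets, few enough that undetected ones are likely, and these cells stayed in.

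UMIs were summed per library and gate and given as CPM with exact Poisson intervals. Ratios have exact conditional binomial intervals and shares Clopper-Pearson intervals, at 95%. Genes were compared where both sums together held 20 UMIs or more, a count under 3 was set to 3 for the fold, and 2-fold was the limit for counts of genes. With 1 library per day no test was possible, and no p-value was made from cells. Ratios were checked on counts simulated from a Poisson model, which the intervals also assume. That check cannot show how the intervals hold where UMIs are clustered in few cells. The computations used Python 3.11.15, numpy 2.4.6, scipy 1.17.1 and pandas 2.3.3, and TMM factors edgeR 4.0.16 in R 4.3.3.

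All 10 members are named. Of each other gene list, the 3 highest and 3 lowest genes by day 10 to day 3 ratio were taken, with the genes downstream of the OAS enzymes and every interferon ligand with a UMI, and the 10 genes most correlated with the family sum. The members, lists, gates and rules were chosen with earlier results of these data known. Mx2 and Oas1b were not analysed here, and some genes that the rule names are not reported here. Alternative settings covered the cell filter, doublets, gate limits, gene copies, scaling, thinning depth and cells left out.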

Additional observations from a re-analysis of the deposited data

Results flagged for a closer look

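At day 6 against day 3, Ifit2, Oasl1 and the IFIT sum moved in opposite directions in different gates, with counting intervals on opposite sides of 1. The ratio of Ifit2 was 1.86 in the Ly6c2 gate and 0.577 in the Cd209a gate. The ratio of Oasl1 was 1.68 in the Ly6c2 gate, 0.473 in the C1qa gate, 0.203 in the Cd209a gate and 0.453 in the neither gate. The ratio of the IFIT sum was 1.43 in the Ly6c2 gate, 0.684 in the C1qa gate, 0.644 in the Cd209a gate and 0.801 in the neither gate. The difference between gates was not tested. The Ly6c2 gate of day 6 held 22 cells, of which the highest carried 64 of its 186 family UMIs, and neutrophil markers stood at 2758 CPM there. Without the 5 highest cells of each library, its ratios were 1.21 for Ifit2, 1.05 for Oasl1 and 0.995 for the IFIT sum.

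The barcodes left out by the cell filter also held family mRNA, at 889, 211 and 179 CPM at days 3, 6 and 10, from 572, 598 and 847 barcodes. The order of the days was the same as in the kept cells.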

How the results depend on the processing

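Over 113 recomputed values that answer a comparison, 84 stayed within their counting interval or within 1.5 times a count and 29 moved beyond it. Among them no ratio whose interval lies on 1 side of 1 changed direction. The flagged ratios above are not among these values. That of the IFIT sum in the Ly6c2 gate passed to the other side of 1 without the 5 highest cells. The number of members at least 2-fold lower at day 10 than at day 3 was 9 of 10 (background 3.96%). It was 10 of 10 without the 5 highest cells, a setting for which no background was computed. Of 80 recomputed ratios of single genes, 8 moved. The settings without the 5 highest cells, without neutrophil-marked cells and without Ifnb1 cells were chosen after seeing the data. The day 10 over day 3 ratio of the family was 0.147 without the 4 near-identical genes, 0.157 with each cell weighing the same or with TMM factors, and 0.139 without the 5 highest cells. The day 6 over day 3 ratio was 0.370 with no cell filter, 0.386 at a mitochondrial limit of 20%, 0.346 with TMM factors and 0.348 without the 5 highest cells. The day 10 over day 6 ratio was 0.481 with no filter, 0.349 without the near-identical genes, 0.394 with equal cells and 0.400 without the 5 highest cells.

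Within gates, the day 10 over day 3 ratio was 0.354 in the Ly6c2 gate and 0.0937 in the C1qa gate without the near-identical genes, 0.0928 in the C1qa gate with gates at 1 UMI and 0.0884 there without the 5 highest cells. The Ly6c2 gate over the C1qa gate gave 5.39 at day 10 with gates at 1 UMI and 4.30 without the 5 highest cells. At day 6 it gave 1.66 with gates at 5 UMIs, 1.86 without the 5 highest cells and 1.59 without Ifnb1 cells, and at day 3 it gave 0.953 with no cell filter, where the main interval spans 1. The share of cells with a family UMI at days 3, 6 and 10 was 75.7%, 36.9% and 21.2% at 4000 UMIs per cell and 87.6%, 58.0% and 33.8% unthinned, and 15.6% at day 10 with no filter. The cause of these moves was not tested. No paired analysis was possible because each day has 1 library. The depth limits Ifit3b and Oas1g inside gates, where sums of under 20 UMIs leave intervals several-fold wide.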
